A study of Mus musculus with 6 samples.

Results

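The S100 genes described here are S100a4, S100a6, S100a8, S100a9, S100a10, S100a11 and S100a13, taken by symbol from the 32285 genes of the deposited tables, where all 7 were found. They were followed in 6 droplet-based single-cell RNA-seq libraries from female C57BL/6 mice whose ovarian bursa had been injected with KPCA, a mouse ovarian cancer cell line with intact homologous recombination. Each library came from 1 mouse of 1 treatment, namely control, 2-deoxy-D-glucose (2DG), 2F-peracetyl-fucose (2FF), an antibody against PD-L1 (anti-PD-L1), and each inhibitor combined with the antibody (2DG plus anti-PD-L1, 2FF plus anti-PD-L1). 2DG is a glucose analog that limits glycolysis and N-glycan synthesis, 2FF inhibits fucosylation, and PD-L1 is the ligand of the inhibitory receptor PD-1. Control mice received solvent and control rat IgG. In the 2FF groups the tumor cells were also exposed to 2FF before injection, so those groups differed from the others in the injected cells too. The control and anti-PD-L1 libraries served as the reference for both inhibitors. The study's methods describe digested tumors and give 1 age range, in weeks, for the injected mice. In contrast, lymph node stands in the labels and the series design speaks of young and aged mice without an age per sample.

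S100 proteins are small EF-hand proteins found in vertebrates, most of which change shape on binding calcium and then dock onto a partner protein. S100a8 and S100a9 form calprotectin, which fills much of the neutrophil cytosol, chelates zinc and manganese, and when released acts on Tlr4 and on the receptor Ager. The other members described here mostly bind annexins and the cytoskeleton and are found in many cell types.

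The 7 genes lie on mouse chromosome 3 in 2 groups. In GENCODE M21 on GRCm38, S100a13 (90514435 to 90524581), S100a4 (90603771 to 90606045), S100a6 (90612882 to 90624181) and S100a8 (90668978 to 90670035) are on the plus strand, and S100a9 (90692632 to 90695721) is on the minus strand. S100a4 and S100a6 are 6836 bases apart, and S100a8 and S100a9 are 22596 bases apart. S100a11 (93520488 to 93526287) and S100a10 (93555080 to 93564643), both on the plus strand, follow 2824766 bases further along.

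The stretches upstream of S100a8 and S100a9 are printed because these genes had nearly the same pattern across the cell classes, and that of S100a4 because this neighbor had its lowest level where theirs was highest. They are RefSeq sequences of GRCm38.p6, read 5′ to 3′ on the gene's strand and cut where an annotated exon begins. Capitals mark matches, on either strand, to a TATA box (TATAAA), a C/EBP motif (TTGCNNAA), a PU.1 core (GAGGAA, or TTCCTC on the other strand), an AP-1 motif (TGANTCA) or a GC box (GGGCGG). Positions count back from the base before the transcription start.
S100a8 (chr3:90668821-90668977, plus strand, positions -250 to -94): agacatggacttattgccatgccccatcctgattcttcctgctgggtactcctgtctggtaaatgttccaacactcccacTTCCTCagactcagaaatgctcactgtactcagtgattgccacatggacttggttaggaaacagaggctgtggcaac
S100a9 (chr3:90695722-90695971, minus strand, positions -250 to -1): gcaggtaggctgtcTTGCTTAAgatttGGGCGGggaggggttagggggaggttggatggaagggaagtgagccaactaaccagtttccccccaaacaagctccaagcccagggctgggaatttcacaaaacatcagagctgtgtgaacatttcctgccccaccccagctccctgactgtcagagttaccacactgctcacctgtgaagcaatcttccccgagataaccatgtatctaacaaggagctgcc
S100a4 (chr3:90603520-90603769, plus strand, positions -250 to -1): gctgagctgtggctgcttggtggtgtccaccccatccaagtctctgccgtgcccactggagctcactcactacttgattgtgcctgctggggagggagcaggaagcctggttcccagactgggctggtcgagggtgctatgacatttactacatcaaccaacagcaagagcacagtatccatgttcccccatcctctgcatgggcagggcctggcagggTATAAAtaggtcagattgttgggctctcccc
The printed S100a8 stretch of 157 bases held 1 match, to the PU.1 core at -170. The remaining 93 bases of its window, not printed because they lie in annotated exons, held a TATA box at -30 and a PU.1 core at -36. S100a9 had a C/EBP match at -236 and a GC box at -223, and S100a4 had a TATA box at -31. Among 32851 mouse promoter windows the shares with at least 1 match were 12.4% for the TATA box, 9.56% for the C/EBP motif, 23.3% for the PU.1 core, 6.75% for the AP-1 motif and 32.7% for the GC box. These shares are for whole windows of 250 bases, exons included. The windows of S100a8 and S100a9 had no motif of this set in common outside exons. S100a11 (chr3:93520246-93520487, 242 bases) had AP-1 matches at -136 and -38, a PU.1 core at -153 and GC boxes at -64, -52 and -24, and the S100a6 window (chr3:90612644-90612881, 238 bases) had none of the 5 motifs.

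With at least 250 genes and at most 5% mitochondrial counts required of each cell, 51633 of 57078 cells remained, 7703 to 9222 per library, with 59741689 to 72277591 unique molecular identifiers (UMIs, counts of distinct captured RNA molecules) per library and a median of 6196 to 7732 per cell. Cells were put in classes by markers that included no S100 gene, and 67.6% to 75.9% of cells per library entered one. The 12 classes compared here are called neutrophil-like and so on after those markers. T cells that were not CD8 T-like, conventional CD4 T-like or Treg-like (62 in control to 355 with 2DG) also had at least 20 cells per library. They were not among the 12 classes. Of 31 pairs of a class and a separate marker gene, the class was the highest of the 12 in 21 and among the highest 3 in 29. Retnlg, Mmp9, Lcn2 and Mmp8 were all highest in neutrophil-like cells, and Il2ra, Ikzf2 and Ctla4 in Treg-like cells. The Treg-like cells were also the highest for Il7r, which is usually low in regulatory T cells, at 480 CPM (UMIs of a gene per 1000000 UMIs of the class). They were told from other T cells by at least 1 UMI of Foxp3 and none of Cd8a or Cd8b1. B-like cells were 0.661% (control) to 4.46% (2DG plus anti-PD-L1) of kept cells, and only 31 cells had tumor markers, from 5 of the 6 libraries. In all, 389 barcode sequences occurred in more than 1 library. The control library stood apart in its makeup, with 28.1% neutrophil-like cells (2547 cells) against 2.91% to 5.20% (260 to 480 cells) in the other libraries, and 1.19% CD8 T-like cells (108 cells) against 1064 to 1904 cells. Levels below are CPM of the class in a library, so they are relative to the other RNA of that class, and less RNA of a gene cannot be told from more RNA of other genes. With 1 mouse per treatment, comparisons between treatments have no replicate and no test. Comparisons between classes have 5 or 6 mice each.

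**Figure D1:**
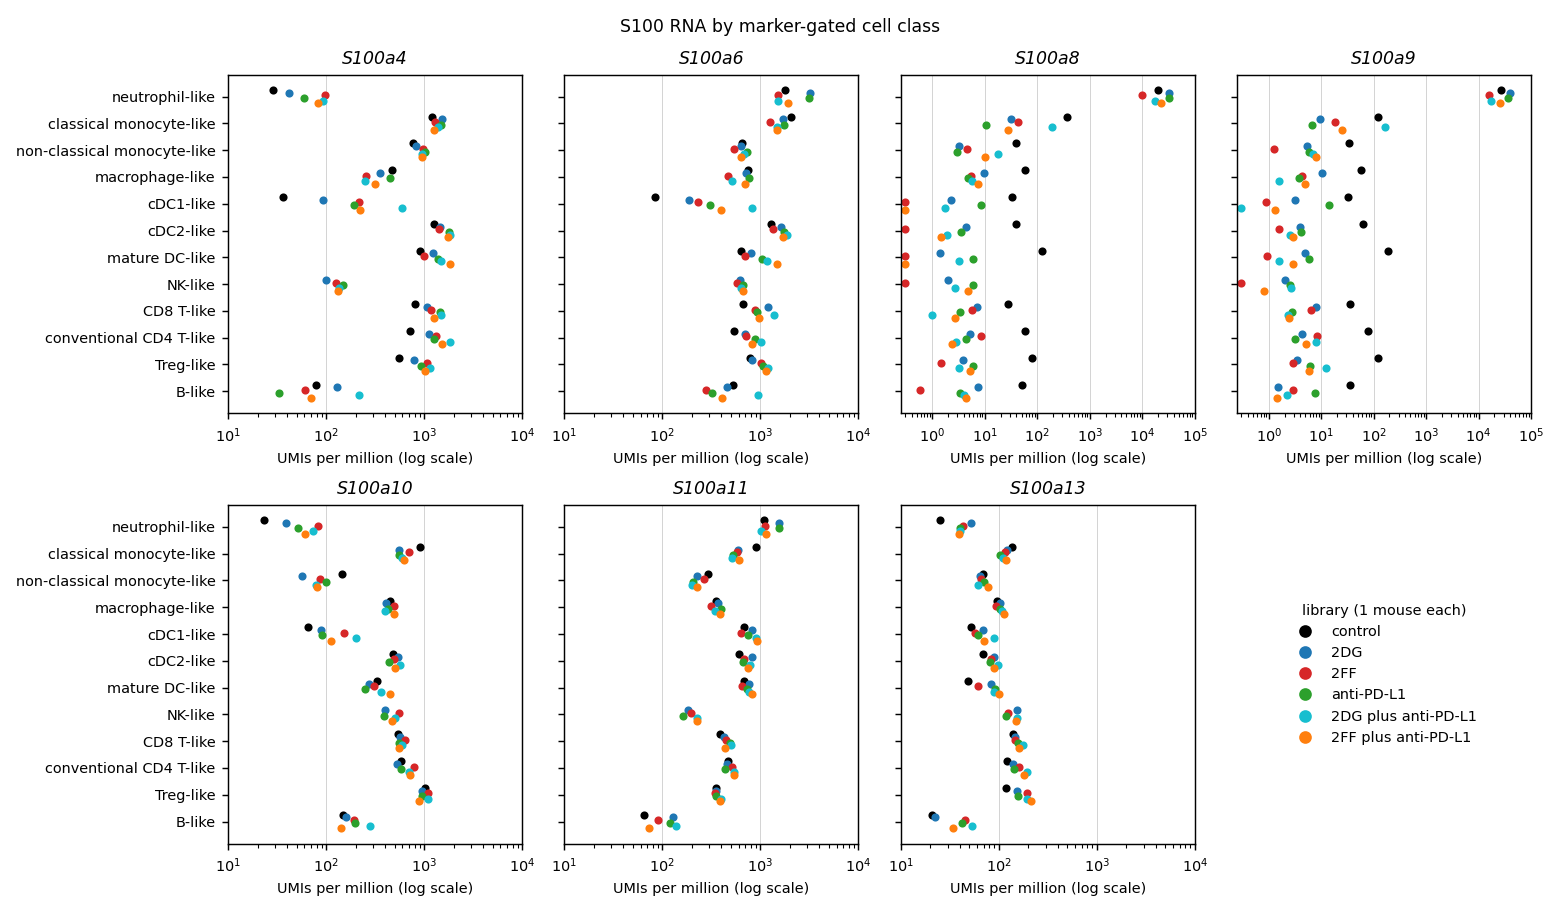
Levels of the 7 S100 genes in 12 cell classes, in CPM of the class on a log axis, with 1 point per library (1 mouse each). Points at 0 are drawn at 0.3, and NK-like cells have 5 libraries because the control had only 18 such cells. S100a8 and S100a9 in neutrophil-like cells lie above all other classes in every library, while the other genes spread over several classes.

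S100a8 and S100a9 were neutrophil genes in all 6 mice. In neutrophil-like cells S100a8 was at 20224 CPM in control, 31646 with 2DG, 9893 with 2FF, 32393 with anti-PD-L1, 17164 with 2DG plus anti-PD-L1 and 22444 with 2FF plus anti-PD-L1. S100a9 in the same order was at 26370, 39338, 15932, 36604, 17543 and 25760 CPM. The 2DG and anti-PD-L1 libraries were the highest and the 2FF library the lowest for both genes. The 2 genes together made up 4.66% of all UMIs of these cells in control, 7.10% with 2DG, 2.58% with 2FF, 6.90% with anti-PD-L1, 3.47% with 2DG plus anti-PD-L1 and 4.82% with 2FF plus anti-PD-L1. Among the 12 classes the next was classical monocyte-like, with a mean of 112 CPM for S100a8 and 56.9 CPM for S100a9. The lowest neutrophil-like library lay above the highest monocyte-like one for both genes. T cells outside these classes were at 254 and 336 CPM in control (62 cells), and at most at 6.78 and 6.10 CPM in the other libraries.

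Within the neutrophil-like class a small group of cells stood apart. Camp, Ngp and Ltf encode proteins of the secondary granules made by immature neutrophils, and 133 of the 4227 neutrophil-like cells had at least 2 of these transcripts, a split chosen after the values were seen. S100a8 was at 90112 ± 19517 CPM (SD, n = 6 libraries) in them and at 12741 ± 4742 CPM in the other 4094. S100a9 was at 100157 ± 13168 CPM against 16620 ± 5774 CPM, and S100a6 at 4634 ± 1059 CPM against 1816 ± 501 CPM. The ranges of the 2 groups of cells did not overlap for any of these genes. The share of all genes that separate the 2 groups in this way is not given here. S100a11 was at 1815.5 ± 438 CPM against 1163 ± 180 CPM, with overlapping ranges. S100a13 was at 79.7 ± 12.6 CPM against 34.5 ± 6.10 CPM. S100a4 and S100a10 went the other way, at 7.39 ± 7.24 against 75.3 ± 30.2 CPM and at 4.14 ± 4.98 against 61.9 ± 22.9 CPM. The split was made on the same cells, so these values are a description without a test. The 2DG plus anti-PD-L1, 2FF and 2FF plus anti-PD-L1 libraries had 8, 11 and 12 granule cells, below the 20 asked of a class. Cells with more UMIs pass such a gate more easily, and the part of depth was not tested.

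**Figure D2:**
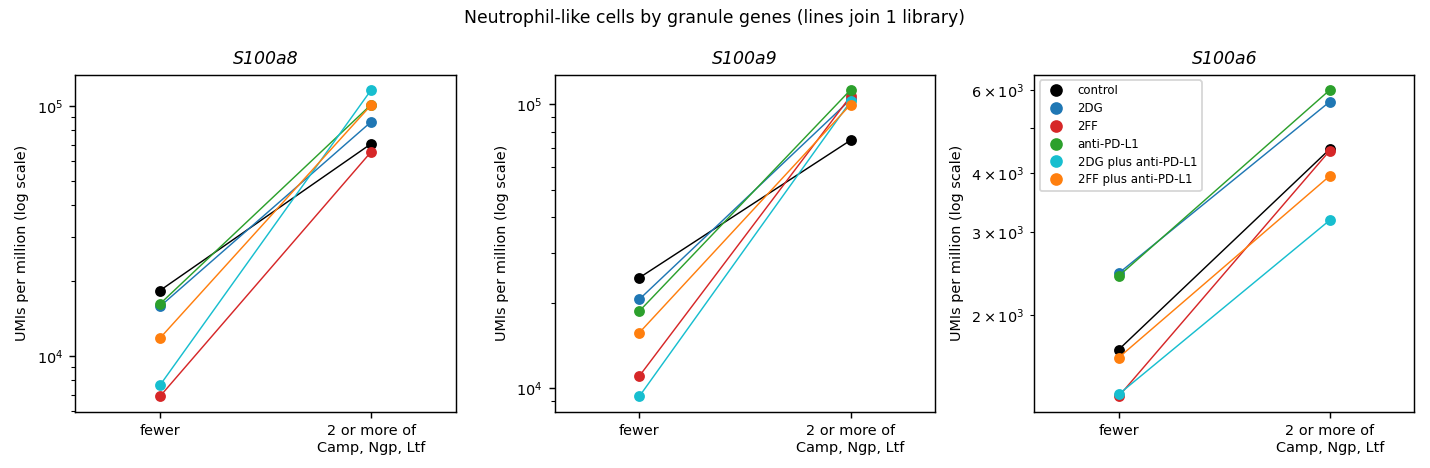
Levels of S100a8, S100a9 and S100a6 in neutrophil-like cells with at least 2 of the granule transcripts Camp, Ngp and Ltf (133 cells, right) and in the remaining 4094 (left), in CPM on a log axis, with 1 point per library and lines joining the points of 1 library. All 3 genes are higher in the granule cells in each of the 6 libraries.

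The order of the libraries changed when these cells were set aside. The granule cells numbered 51 in control, 27 with 2DG, 11 with 2FF, 24 with anti-PD-L1, 8 with 2DG plus anti-PD-L1 and 12 with 2FF plus anti-PD-L1, that is, they were a smaller fraction of the many control neutrophils than of those in the 2DG and anti-PD-L1 libraries. Without them S100a8 was at 18256, 15762, 6886, 16139, 7630 and 11772 CPM in the same order, and S100a9 at 24480, 20549, 11017, 18668, 9342 and 15665 CPM. The control library was then the highest for both genes.

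**Figure D3:**
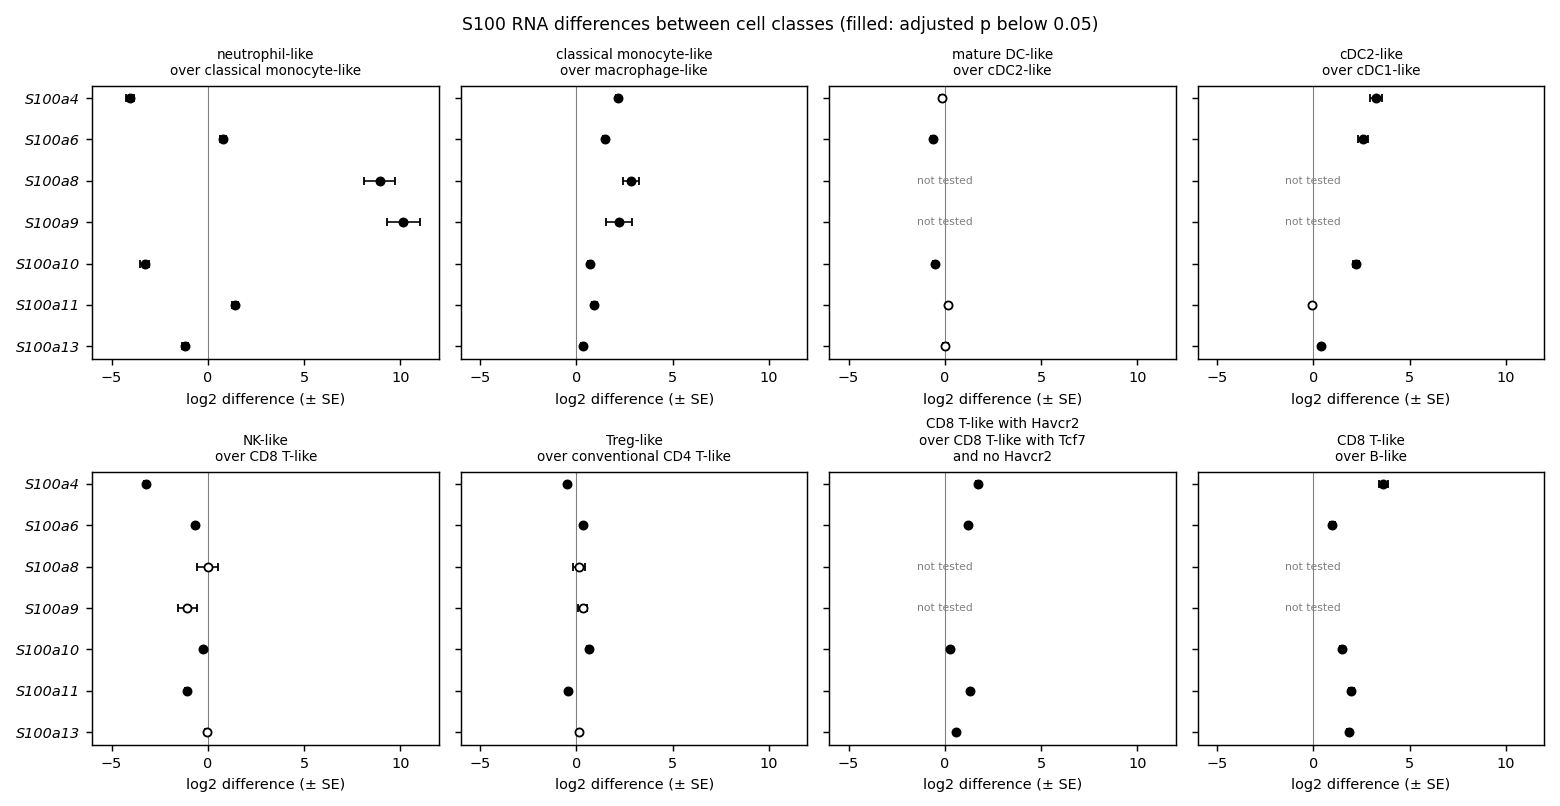
Log2 differences of the 7 S100 genes between pairs of classes, with bars of 1 standard error, from edgeR with the library as a block. Filled points passed an adjusted p of 0.05, open points did not, and genes with too few counts in a contrast are written as not tested. S100a8 and S100a9 have the largest differences, in the neutrophil-like contrast, and S100a4 is at -4.07 there and at 3.64 in CD8 T-like over B-like cells.

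Between neutrophil-like and classical monocyte-like cells all 7 genes differed, 4 higher and 3 lower (edgeR quasi-likelihood test, library as block, Benjamini-Hochberg adjustment over 11072 genes, n = 6 mice). Of those genes 64.8% were called, 3274 higher and 3899 lower, with a median log2 difference of -0.13 over all genes, so a call by itself was common here. S100a9 was higher by 10.16 on the log2 scale (SE 0.86, adjusted p = 9.14e-07), S100a8 by 8.91 (SE 0.83, adjusted p = 1.83e-06) and S100a11 by 1.41 (SE 0.15, adjusted p = 6.53e-06). S100a4, also called metastasin, which binds the nonmuscle myosin heavy chain Myh9 and promotes cell movement, was lower by -4.07 (SE 0.22, adjusted p = 1.9e-08). S100a10, the partner of Anxa2, was lower by -3.28 (SE 0.24) and S100a13, which takes part in the export of Fgf1 and Il1a, by -1.21 (SE 0.15). S100a6, or calcyclin, had the smallest difference at 0.77 (SE 0.16, adjusted p = 0.00117) and was higher in 5 of 6 mice. That call ended when the counts per cell seen in B-like cells of each library were subtracted (0.10, adjusted p = 0.912). B-like cells averaged 489 CPM of S100a6, and the subtraction cannot tell RNA from outside these cells from their own. The S100a6 difference was 0.38 without a normalization factor. With a looser class rule S100a4 was at -2.24 and S100a10 at -1.93.

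The neutrophil-like level of S100a6 ranged from 1506 (2FF) to 3179 CPM (2DG), and that of S100a11, a binder of Anxa1, from 1007 (2DG plus anti-PD-L1) to 1546 CPM (2DG). For S100a11 neutrophil-like cells were the highest class without overlap, the next class being cDC1-like at a mean of 785 CPM. For S100a6 the order was neutrophil-like (2169 ± 771 CPM, n = 6), classical monocyte-like (1612 ± 277) and cDC2-like (1584 ± 232), whose ranges overlapped, and the step from cDC2-like to Treg-like cells (1002 CPM) was the only one between neighboring classes without overlap. The lowest S100a6 level was in cDC1-like cells at 336 CPM.

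S100a8 and S100a9 were also counted outside neutrophil-like and classical monocyte-like cells, mainly in the control library. In control B-like cells there were 0.283 UMIs of S100a8 and 0.200 of S100a9 per cell, in CD8 T-like cells 0.213 and 0.269, in macrophage-like cells 0.666 and 0.654, and in mature DC-like cells 1.23 and 1.88. The 62 control T cells in none of the 12 classes had more than the other lymphocytes, at 1.45 and 1.92 per cell. Thinned to 1000 UMIs, 16.2% of them held an S100a8 UMI and 21.2% an S100a9 UMI. Over all classes with at least 20 cells per library other than neutrophil-like and classical monocyte-like, the other 5 libraries had at most 0.133 UMIs of S100a8 and 0.222 of S100a9 per cell. Control neutrophil-like cells had 105 and 137 per cell. After each cell was thinned to 1000 UMIs, 6.37% of control B-like cells, 3.23% of CD8 T-like cells and 7.13% of macrophage-like cells held an S100a8 UMI, against 92.9% of neutrophil-like cells. Before thinning the median UMIs per cell of these classes in control ran from 3949 in neutrophil-like to 11832.5 in macrophage-like cells. B-like and T cells are not known to make S100a8, and no expression by the lymphocyte, dendritic cell or macrophage classes is read from such counts. With the B-like counts per cell subtracted, S100a9 in control macrophage-like cells was at 39.0 of 56.2 CPM.

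Other transcripts of neutrophils were counted in the same cells. Of 9 neutrophil RNAs looked at besides S100 genes, 8 had their highest level per cell in the control library among macrophage-like cells, the exception being Slpi. Leaving out Slpi, their summed level was 0.696 UMIs per cell in control macrophage-like cells and 0.106 to 0.148 in the other libraries. In classical monocyte-like cells all 9 were highest in control, with 2.95 UMIs per cell against 0.324 to 0.526. In CD8 T-like cells 6 of 9 were, with 0.0833 against 0.0102 to 0.0243, which rests on 9 UMIs in control. In B-like cells 2 of 9 were, with 0.05 (3 UMIs) against 0.0175 to 0.0422. With Slpi counted the order of the B-like cells turned, control being the lowest at 0.05 against 0.203 to 18.2 UMIs per cell, while CD8 T-like cells of control stayed the highest at 0.139 against 0.0398 to 0.113. In macrophage-like cells control was then at 1.45, within the 1.18 to 1.88 of the other libraries. Retnlg, the gene of a neutrophil-secreted resistin-like protein, was at 0.0780 UMIs per cell (75 UMIs) in control macrophage-like cells and at 0.00428 to 0.0241 in the other libraries. Its ratio to S100a9 in the control library was 0.115 in neutrophil-like cells, 0.119 in macrophage-like cells and 0.0824 in classical monocyte-like cells. The ratios of Asprv1 (0.0113 and 0.0159) and Stfa2l1 (0.0239 and 0.0302) were also near each other in neutrophil-like and macrophage-like cells. Those of the other genes were not. Mmp8 was at 0.0171 of S100a9 in neutrophil-like, 0.382 in macrophage-like and 0.956 in classical monocyte-like cells, and Wfdc21 at 0.0259, 0.191 and 0.762. Lcn2 was at 0.0378, 0.0747 and 0.447, Mmp9 at 0.0116, 0.211 and 0.0440, Il1f9 at 0.0193, 0.0413 and 0.0401, and Slpi at 0.0340, 1.15 and 3.28. All 9 ratios were thus higher in macrophage-like than in neutrophil-like cells, and 8 of 9 were higher in classical monocyte-like cells, Retnlg being the exception. The ratio of S100a8 to S100a9 was 0.767 in control neutrophil-like cells, 0.793 in CD8 T-like, 0.638 in Treg-like, 0.726 in conventional CD4 T-like, 0.611 in cDC2-like, 1.04 in cDC1-like, 1.02 in macrophage-like and 1.42 in B-like cells, where it rests on 17 and 12 UMIs. Doublets, free RNA and uptake of neutrophils as sources of these counts were not tested against each other.

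**Figure D4:**
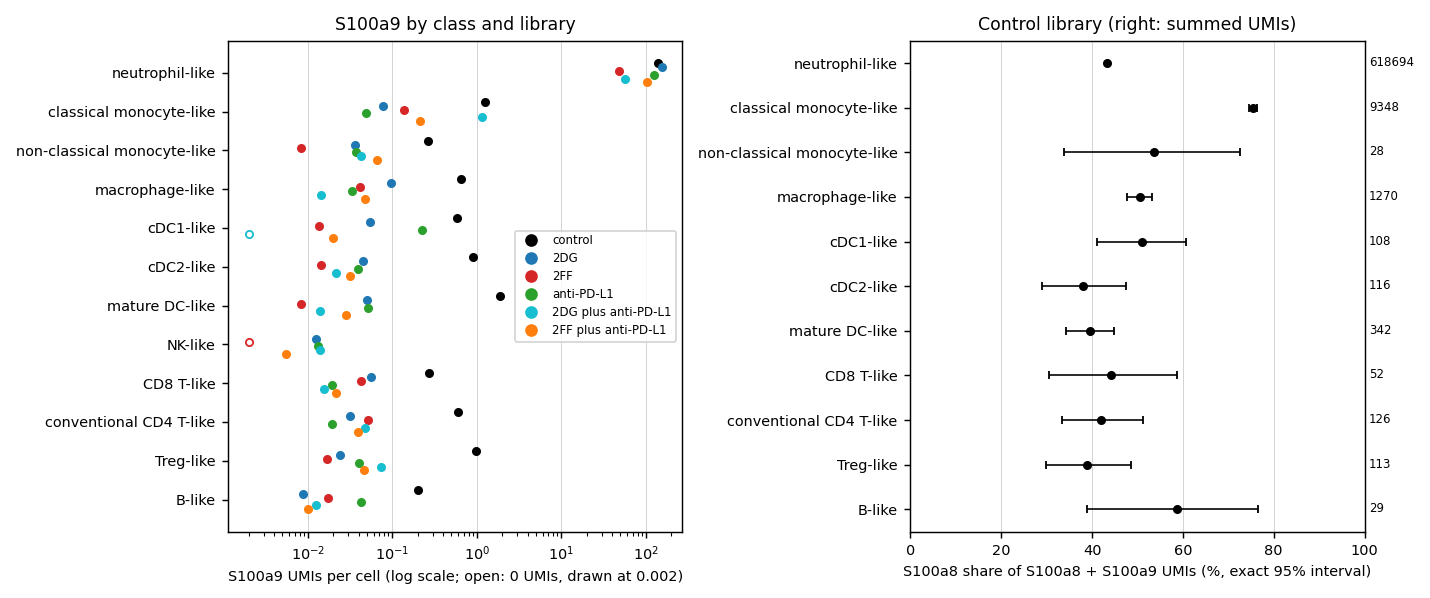
Left, UMIs of S100a9 per cell in each class on a log axis, 1 point per library, with libraries at 0 drawn open at 0.002. Right, the share of S100a8 in the summed S100a8 and S100a9 UMIs of each class of the control library, with exact 95% intervals and the summed UMIs at the edge. The control library is the highest in every class that it has but the neutrophil-like one, and the share of S100a8 is highest in classical monocyte-like cells at 75.4%.

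Classical monocyte-like cells held more S100a8 than S100a9, unlike neutrophil-like cells. Control monocyte-like cells had 3.83 UMIs of S100a8 and 1.25 of S100a9 per cell, so S100a8 was 75.4% of the 2 genes' counts (exact binomial interval 74.6% to 76.3%, counting error only, as for all intervals here), against 43.4% (43.3% to 43.5%) in neutrophil-like and 50.5% (47.7% to 53.3%) in macrophage-like cells. A few cells carried much of it. In control, 76 monocyte-like cells (4.13%) with 20 or more UMIs of either gene held 65.1% of the class's S100a8, and with 2DG plus anti-PD-L1 only 2 cells held 95% of it. Such cells held 60.5% with 2DG and with 2FF, 43.3% with 2FF plus anti-PD-L1 and 34.0% with anti-PD-L1. In the remaining monocyte-like cells the ratio of S100a8 to S100a9 was 2.92 in control, 4 with 2DG, 5.09 with 2FF, 2.82 with anti-PD-L1, 7.6 with 2DG plus anti-PD-L1 and 3.96 with 2FF plus anti-PD-L1, always above the 0.621 to 0.978 seen in neutrophil-like cells. Outside control these ratios rest on only 10 (2DG plus anti-PD-L1) to 45 (2FF plus anti-PD-L1) UMIs of S100a9. The mean log2 difference between the remaining monocyte-like cells and neutrophil-like cells was 2.35 ± 0.55 (SD, n = 6). It is given as a description because the remaining cells were picked by their values. Over all monocyte-like cells the ratio was 1.12 to 3.24, and the log2 difference was 1.23 ± 0.84 (SD, higher in 6 of 6 mice, two-sided exact paired permutation p = 0.03125, the smallest that 6 pairs allow). This comparison was chosen after the values were seen. The shift was not particular to monocyte-like cells. In macrophage-like cells the ratio was 1.02, 0.947, 1.24, 1.24, 3.7 and 1.49 in the same order of libraries. It was above that of neutrophil-like cells in each library. In both combination libraries it was also above the ratio over all monocyte-like cells (1.17 with 2DG plus anti-PD-L1, 1.12 with 2FF plus anti-PD-L1). In these libraries 2 and 3 monocyte-like cells with 20 or more UMIs held 99.2% and 83.9% of the class's S100a9. With such cells left out of both classes, the macrophage-like ratio was 1.08, 1.38, 1.24, 1.24, 3.7 and 1.49. It was then below the monocyte-like ratio in each library. The 3.7 rests on 74 UMIs of S100a8 and 20 of S100a9.

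From classical monocyte-like to macrophage-like cells the whole group of 7 went one way, with all 7 higher in the monocyte-like cells (edgeR, n = 6), where 53.4% of 12433 genes were called, 3276 higher and 3368 lower. S100a4 was at 1365 ± 129 CPM in monocyte-like and 348 CPM in macrophage-like cells, where it was at 467 CPM in control, 351 with 2DG, 254 with 2FF, 448 with anti-PD-L1, 249 with 2DG plus anti-PD-L1 and 317 with 2FF plus anti-PD-L1, a log2 difference of 2.17 (SE 0.12, adjusted p = 1.25e-06). S100a6 differed by 1.47 (SE 0.08, adjusted p = 9.44e-07), S100a11 by 0.92 (SE 0.13), S100a10 by 0.69 (SE 0.11) and S100a13 by 0.35 (SE 0.09, adjusted p = 0.0078). S100a8 was higher by 2.86 (SE 0.42, adjusted p = 0.000411) and S100a9 by 2.19 (SE 0.67, adjusted p = 0.0205), in 5 of 6 mice for S100a9. With Leiden clusters in place of marker classes S100a8 (0.94, adjusted p = 0.273), S100a9 (1.09, adjusted p = 0.134) and S100a13 (0.21, adjusted p = 0.103) lost the call. S100a9 was also lost without the 2FF library (adjusted p = 0.0509) or the 2FF plus anti-PD-L1 library (adjusted p = 0.0611), and without the library block (adjusted p = 0.065). It was at 1.46 without the 2DG plus anti-PD-L1 library and at 1.28 with marked doublets removed.

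The cDC2-like and cDC1-like cells separated mainly by S100a4, S100a6 and S100a10. S100a4 was highest in cDC2-like cells, at 1253 CPM in control, 1465 with 2DG, 1421 with 2FF, 1816 with anti-PD-L1, 1852 with 2DG plus anti-PD-L1 and 1758 with 2FF plus anti-PD-L1, and averaged 225 CPM in cDC1-like cells. The next class was classical monocyte-like at a mean of 1365 CPM, with an overlapping range, and cDC2-like cells were higher in 5 of 6 mice. All cDC2-like libraries were above all cDC1-like ones. Of 5 members tested in cDC2-like over cDC1-like cells (edgeR, n = 6) 4 were higher, among 8748 genes of which 41.2% were called, 1846 higher and 1759 lower. The differences were 3.25 for S100a4 (SE 0.32, adjusted p = 8.85e-06), 2.58 for S100a6 (SE 0.26, adjusted p = 9.47e-06), 2.23 for S100a10 (SE 0.15, adjusted p = 5.3e-07) and 0.41 for S100a13 (SE 0.09, adjusted p = 0.004). S100a11 was at -0.08 (adjusted p = 0.369), with means of 720 CPM in cDC2-like and 785 CPM in cDC1-like cells.

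Mature DC-like cells, the Ccr7-positive migratory state, had less S100a6 (-0.62, SE 0.10, adjusted p = 0.000195) and less S100a10 (-0.49, SE 0.10, adjusted p = 0.00101) than cDC2-like cells (edgeR, n = 6). These were 2 of 5 members tested, where 61.7% of 8325 genes were called, 2520 higher and 2614 lower. S100a4 was at -0.17 (adjusted p = 0.107), S100a11 at 0.18 (adjusted p = 0.0537) and S100a13 at 0.03 (adjusted p = 0.845). S100a4 passed the test without the 2FF plus anti-PD-L1 library (-0.24, adjusted p = 0.0212) and without a normalization factor (-0.32).

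S100a10 and S100a13 were highest in regulatory T cells. In Treg-like cells S100a10 was at 1011 CPM in control, 958 with 2DG, 1086 with 2FF, 943 with anti-PD-L1, 1089 with 2DG plus anti-PD-L1 and 883 with 2FF plus anti-PD-L1 (995 ± 82.4, SD, n = 6), the narrowest spread relative to its mean among the top classes of the 7 genes. Classical monocyte-like cells followed at 656 CPM, and the control value there, 903 CPM, overlapped the Treg-like range. S100a10, known as p11, does not bind calcium and anchors Anxa2 and Ahnak at the membrane. S100a13 was at 119 CPM in control, 154 with 2DG, 196 with 2FF, 157 with anti-PD-L1, 192 with 2DG plus anti-PD-L1 and 213 with 2FF plus anti-PD-L1 in Treg-like cells, followed closely by conventional CD4 T-like cells at 157 CPM, CD8 T-like cells at 154 CPM and NK-like cells at 139 CPM with overlapping ranges.

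In Treg-like over conventional CD4 T-like cells 4 of 7 members were called (edgeR, n = 6), where 28.7% of 9903 genes were called, 1529 higher and 1317 lower. S100a10 was higher by 0.63 (SE 0.07, adjusted p = 6.96e-06) and S100a6 by 0.37 (SE 0.06, adjusted p = 0.000309), while S100a4 was lower by -0.47 (SE 0.06, adjusted p = 1.51e-05) and S100a11 by -0.43 (SE 0.06, adjusted p = 4.34e-05). S100a13 was at 0.13 (adjusted p = 0.177). Without the library block the calls of S100a4 (adjusted p = 0.0897) and S100a6 (adjusted p = 0.0992) were lost.

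Among killer lymphocytes S100a4 separated T cells from NK cells. CD8 T-like cells had 814 CPM in control, 1077 with 2DG, 1186 with 2FF, 1458 with anti-PD-L1, 1495 with 2DG plus anti-PD-L1 and 1251 with 2FF plus anti-PD-L1, and NK-like cells averaged 129 CPM in 5 libraries. In NK-like over CD8 T-like cells S100a4 was lower by -3.23 (SE 0.07, adjusted p = 1.32e-14), S100a11 by -1.11 (SE 0.08, adjusted p = 2.26e-08), S100a6 by -0.65 (SE 0.09, adjusted p = 1.64e-05) and S100a10 by -0.25 (SE 0.07, adjusted p = 0.00656) by edgeR with n = 5 mice. These 4 of 7 were all lower, where 45.7% of 11378 genes were called, 2571 higher and 2632 lower. S100a13 was at -0.07 and did not pass the test. S100a9 was at -1.07 (adjusted p = 0.0941) and passed without the 2DG plus anti-PD-L1 library (-1.59, adjusted p = 0.041), at means of only 1.61 and 4.36 CPM. S100a10 lost the call without the block (adjusted p = 0.0804).

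CD8 T-like cells with the exhaustion receptor Havcr2 had more S100 RNA than those with Tcf7, a transcription factor of stem-like T cells, and no Havcr2. S100a4 was at 1505 ± 175 CPM in the former and 453 ± 94.9 CPM in the latter (SD, n = 5), a difference of 1.70 (SE 0.07, adjusted p = 3.16e-13 by edgeR). S100a11 differed by 1.33 (SE 0.08, adjusted p = 6.47e-11), S100a6 by 1.23 (SE 0.10, adjusted p = 3.82e-09), S100a13 by 0.60 (SE 0.10, adjusted p = 8.22e-05) and S100a10 by 0.26 (SE 0.07, adjusted p = 0.00531). All 5 members tested were higher, where 34% of 10266 genes were called, 1769 higher and 1723 lower. Control, with only 17 of the Tcf7 cells, was left out of the test. Both states were gated on single UMIs. Over all libraries, control included, the Havcr2 cells (4100) had a median of 7102 UMIs against 5867 in the Tcf7 cells (785). The part of this difference in the result was not tested. S100a10 lost the call without the 2DG library (adjusted p = 0.0556) and without the block (adjusted p = 0.0754).

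B-like cells had the lowest S100a11 and S100a13 of the 12 classes, at means of 102 and 36.0 CPM. For S100a13 neutrophil-like cells were nearly level at 39.8 CPM, higher in only 3 of 6 mice and with overlapping ranges. In CD8 T-like over B-like cells all 5 members tested were higher (edgeR, n = 6), where 62% of 9735 genes were called, 3066 higher and 2968 lower. S100a4 differed by 3.64 (SE 0.25, adjusted p = 6.81e-09), S100a11 by 1.98 (SE 0.11, adjusted p = 4.48e-10), S100a13 by 1.86 (SE 0.12, adjusted p = 3.88e-09), S100a10 by 1.49 (SE 0.11, adjusted p = 1.11e-08) and S100a6 by 0.99 (SE 0.15, adjusted p = 3.43e-05).

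The known partners of S100 proteins were described from a list of 17 genes of annexins, receptors and cargo, of which Ager, Fgf1 and Syt1 had too few counts in every contrast. In neutrophil-like over classical monocyte-like cells 12 of 14 were called, 6 in each direction, against 64.8% of all genes tested. Tlr4, the calprotectin receptor, was higher by 1.71, its co-receptor Cd14 by 1.49, the plasminogen activator receptor Plaur by 2.51 and the cargo Il1a by 2.34. The S100a10 partners were lower, Ahnak by -3.64 and Anxa2 by -0.56, as was S100a10 itself, and the S100a11 partner Anxa1 was higher by 0.86, as was S100a11. The S100a4 target Myh9 was higher by 0.88 where S100a4 was lower.

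In classical monocyte-like over macrophage-like cells 11 of 14 partners were called, against 53.4% of all genes tested. Of these partners 9 were higher, with Anxa2 at 1.42, Ahnak at 1.37 and Anxa1 at 0.97. Cd36 (-0.71) and Cacybp (-0.22), which binds S100a6, were lower. In mature DC-like over cDC2-like cells 11 of 12 were called, against 61.7% of all genes, 3 higher and 8 lower. Anxa2 was at 1.07 there while S100a10 was lower. In cDC2-like over cDC1-like cells 7 of 13 were called, against 41.2% of all genes. Anxa2 (0.92) and Ahnak (1.84) were higher together with S100a10, and Cd36 was lower at -4.62.

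In Treg-like over conventional CD4 T-like cells only 1 of 10 partners was called, against 28.7% of all genes tested. It was Anxa2 at -0.39, in the opposite direction to S100a10. In NK-like over CD8 T-like cells 4 of 11 were called, against 45.7% of all genes, and all 4 were higher. Anxa1 was at 3.25, Ahnak at 0.79 and Anxa2 at 0.66, where S100a11 and S100a10 were lower. In the Havcr2 state 4 of 9 were called, against 34% of all genes, with Anxa2 higher by 1.31 and Ahnak lower by -0.22. In CD8 T-like over B-like cells 8 of 10 were called, against 62% of all genes, with Anxa2 higher by 3.65 and Plaur at -5.83. S100a10 and Anxa2 were called in the same direction in 5 of the 8 contrasts and in opposite directions in the other 3.

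Among the 10 further genes of the family that were found, S100a1 had by far the most UMIs (8225). S100a1, a regulator of calcium handling best known in muscle, was at 44.3 ± 5.76 CPM (SD, n = 6) in macrophage-like cells, 28.5 CPM in classical monocyte-like, 25.5 in cDC1-like and 22.3 in NK-like cells. It was lower in neutrophil-like than in classical monocyte-like cells (-2.08) and lower in classical monocyte-like than in macrophage-like cells (-0.48). S100a1 was also lower in cDC2-like than in cDC1-like cells (-0.81) and higher in NK-like than in CD8 T-like cells (2.83). In each of these contrasts but the first, the members called all went the other way. S100b, with 293 UMIs, was tested between classical monocyte-like and macrophage-like cells and did not pass (-0.053, SE 0.25, adjusted p = 0.946 by edgeR). S100a16 had 564 UMIs and the remaining genes 85 or fewer.

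Likeness of pattern was measured as Pearson's r of the class means on the log2(CPM + 5) scale over 12 classes among 14803 genes, as a description without a test, since classes share libraries. S100a8 and S100a9 had r = 0.995 with each other. This value rests largely on neutrophil-like cells, with means of 22294 and 26925 CPM against at most 112 and 56.9 CPM in the others of these 12 classes. The genes most like S100a8 outside the family were Lcn2, Mirt2 and Fcnb (0.997 each), and those most like S100a9 were Elane, Steap4 and 4933412O06Rik (0.995 each). For S100a11 they were Rtf2 (0.919), Adam8 (0.910) and Cox17 (0.906), for S100a6 Xaf1 (0.906), and for S100a4 Nbdy (0.842). S100a10 was most like Rfxank (0.873) and S100a13 most like Raph1 (0.963) and Atp2b4 (0.948). Among the members, S100a10 and S100a13 had r = 0.841, S100a4 and S100a10 0.613, and S100a4 and S100a8 -0.43.

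Across treatments, 11 of the 12 classes had at least 20 cells in every library, and the control mouse had the lowest S100a4 in 9 of them. The exceptions were B-like cells, where it was neither lowest nor highest, and macrophage-like cells, where it was the highest. Among 6451 genes with at least 50 UMIs in each of these classes, 3.24% were lowest in control in as many classes. In conventional CD4 T-like cells S100a4 was at 713 CPM in control, 1115 with 2DG, 1311 with 2FF, 1269 with anti-PD-L1, 1823 with 2DG plus anti-PD-L1 and 1509 with 2FF plus anti-PD-L1. In neutrophil-like cells it was at 28.6, 41.6, 97.7, 59.2, 93.8 and 83.5 CPM in the same order. S100a13 was lowest in control in 8 of 11 classes, against 6.7% of genes. With 1 mouse per treatment, what the control mouse differed in cannot be told apart from treatment.

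**Figure D5:**
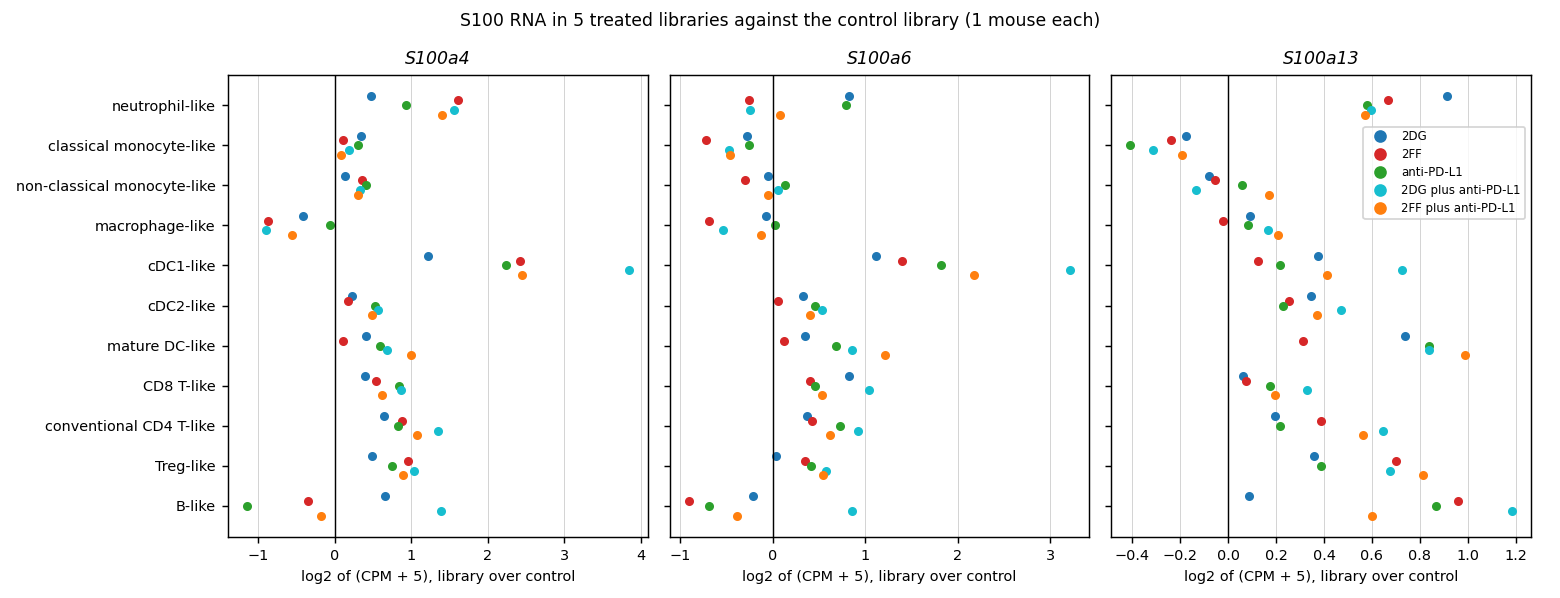
Levels of S100a4, S100a6 and S100a13 in each treated library relative to the control library of the same class, as log2 ratios of CPM with 5 added, 1 point per library. All 5 treated libraries lie above 0 in 9 of 11 classes for S100a4 and in 8 for S100a13, and the cDC1-like class has the largest differences for S100a4 and S100a6.

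The addition of anti-PD-L1 could be read in 3 pairs of libraries, namely anti-PD-L1 over control and each combination over its inhibitor alone. S100a6 and S100a13 were higher with anti-PD-L1 in 3 of 3 pairs in 7 of the 11 classes, a pattern that 1.33% of the 6451 genes had in 7 or more. S100a4 had it in 5 classes, and 5.10% of these genes had it in 5 or more. The pattern counts direction only, whatever the size of the step. For S100a13 in cDC2-like cells control was at 68.6 CPM (counting interval 54.2 to 85.6) and anti-PD-L1 at 81.1 CPM (68.1 to 96.0). Control, the reference of that pair, was also the lowest library in 8 of 11 classes for S100a13 and in 6 for S100a6. Of these genes 6.70% were lowest in control in 8 or more classes and 19.2% in 6 or more. In cDC1-like cells S100a4 was at 36.6 CPM in control, 92.2 with 2DG, 217 with 2FF, 191 with anti-PD-L1, 590 with 2DG plus anti-PD-L1 and 221 with 2FF plus anti-PD-L1, and S100a6 at 83.5, 187, 229, 306, 818 and 396 CPM. Each of the 5 treated libraries was at least 2-fold above control for both genes, from 2.24-fold (S100a6, 2DG, counting interval 1.84 to 2.73) to 16.1-fold (S100a4, 2DG plus anti-PD-L1, 12.2 to 21.5), and 0.276% of 9054 genes had this pattern in this class. These values rest on 44 to 130 cells per library, and the median UMIs of cDC1-like cells went from 20511.5 in control to 11649 with 2DG plus anti-PD-L1, the lowest and the highest library for S100a4, a difference in depth whose part was not tested.

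Some further patterns concerned the control library. S100a8 and S100a9 were each at least 2-fold above every other library in 8 of 11 classes, a pattern that 0.0518% of 9653 genes with at least 10 UMIs per class had in 8 or more classes. The levels of other neutrophil RNAs in these classes are given above, and their part in the pattern was not tested. The classical monocyte-like class of control was the highest library for 5 of the 7 members, S100a6, S100a8, S100a10, S100a11 and S100a13, against 19% of 12265 genes. S100a11 there was at 902 CPM in control and 508 to 608 CPM elsewhere, and S100a10 at 903 CPM and 551 to 705 CPM. CD8 T-like cells of control were the lowest for 5 of 7, S100a4, S100a6, S100a10, S100a11 and S100a13, against 34.4% of 12593 genes. Control had only 108 such cells, and some of its counting intervals overlapped those of other libraries. For S100a10 they were 489 to 590 CPM in control and 547 to 575 with anti-PD-L1. For S100a11 they were 343 to 429 CPM in control and 407 to 434 with 2DG, and for S100a13 115 to 167 and 137 to 153.

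In the whole libraries S100a8 was at 5114 CPM in control, 920 with 2DG, 311 with 2FF, 659 with anti-PD-L1, 386 with 2DG plus anti-PD-L1 and 700 with 2FF plus anti-PD-L1. Neutrophil-like cells held 72.7%, 74.8%, 67.0%, 70.6%, 59.1% and 65.8% of these UMIs, and cells in no class 24.4% to 34.1%. The order of whole libraries thus differed from that within neutrophil-like cells, where control was not the highest.

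Cells with markers of tumor, stroma and rarer immune types were too few for a comparison and are given as pooled counts. The 31 tumor-like cells, of which 20 were marked as doublets, had S100a6 at 3457 CPM (exact Poisson interval 3320 to 3598), S100a4 at 1000 CPM, S100a11 at 949, S100a10 at 909 and S100a13 at 77.6. They held 2 UMIs of S100a8 and none of S100a9, which allows up to 5.30 CPM. The 19 fibroblast-like cells had S100a6 at 3735 CPM and S100a4 at 1451 CPM, with 15 marked as doublets. In 30 endothelial-like cells S100a6 was at 1368 CPM. Plasmacytoid dendritic-like cells (66) had S100a6 at 394 and S100a4 at 36.7 CPM, and plasma-like cells (68) had the lowest levels, at 19.5 and 13.2 CPM.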

How the data were processed

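Cells from each of the 6 mice were processed by the authors with Cell Ranger (7.0.0 in the file headers, 3.1.0 in the submitters' processing notes) on mm10, and the deposited values are raw UMI counts per gene and cell. Filters of 250 genes and 5% mitochondrial counts followed the study's methods. A cell entered a class when at least 2 and a fraction of 0.5 of that class's markers were detected, no class tied, and any other lineage had at most 0.5 of that fraction. T cells that passed this rule were then divided by at least 1 UMI of single genes. CD8 T-like cells had Cd8a or Cd8b1 without Cd4 or Foxp3. Conventional CD4 T-like cells had Cd4 without these CD8 genes or Foxp3, and Treg-like cells had Foxp3 without these CD8 genes. Counts were summed per library and class (at least 20 cells), expressed per 1000000 UMIs of the class (CPM), and compared between classes with edgeR 4.0.16 (quasi-likelihood, TMM, filterByExpr, library as block since both classes came from the same mouse, adjusted p below 0.05). The test was also run on counts simulated from the gene means of the neutrophil-like and classical monocyte-like data, a run whose outcome is not given here. Scanpy 1.11.5 (clusters and doublets, 3836 marked, kept in the main analysis), DESeq2 1.42.0 and R 4.3.3 served the alternatives. With 1 mouse per treatment, treatments were compared as values only. All 7 members were named, plus the 3 genes closest in pattern and listed partners. The members and lists were chosen with earlier results of these data known. Granule cells and the looser class rule were added after the data were seen. Positions came from GENCODE M21 and promoters from RefSeq. S100a10 had no promoter entry, S100a13 had too few bases outside exons, and protein sequences, S100a7l2 and BC100530 were not analysed here.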

Additional observations from a re-analysis of the deposited data

Results flagged for a closer look

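Each member was checked for a library that stood apart from the other 5 of its class, by the gap to its nearest neighbor relative to the whole range. Of 84 sets 19 had such a library, and 17 of the 19 were the control library. Chance gives about 1 in 20 for independent sets only. These sets share libraries, and S100a8 and S100a9 had nearly the same pattern, so the count is a description without a test. For S100a8 the control values were 50.04 CPM in B-like, 27.8 in CD8 T-like, 78.0 in Treg-like, 33.0 in cDC1-like, 38.7 in cDC2-like, 57.6 in conventional CD4 T-like, 57.2 in macrophage-like and 123 in mature DC-like cells. For S100a9 they were 35.3 CPM in B-like, 35.1 in CD8 T-like, 122 in Treg-like, 63.3 in cDC2-like, 79.3 in conventional CD4 T-like, 56.2 in macrophage-like, 189 in mature DC-like and 34.1 in non-classical monocyte-like cells. A single cell with 20 or more UMIs of either gene held 63.6% of the S100a8 of control Treg-like cells, and 2 such cells held 50.4% of that of control mature DC-like cells. S100a11 in classical monocyte-like cells was at 902 CPM in control. The other 2 were in the 2DG plus anti-PD-L1 library, S100a4 at 590 CPM in cDC1-like cells and S100a6 at 955 CPM in B-like cells.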

How the results depend on the processing

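Of 197 recomputed main values 177 kept their direction and side of the threshold or stayed within their error, and of 697 single-gene differences 663 did, 12 lost and 7 gained a call and 15 changed sign. Each member kept its highest class under all 7 settings tried for levels. The library block was the replicate block here, since both classes come from 1 mouse. Without the replicate block 2 rather than 4 members were called in Treg-like over conventional CD4 T-like cells, and the counts were 7, 6, 2, 4, 3, 4 and 5 in the neutrophil, monocyte, mature DC, cDC2, NK, CD8 state and CD8 T over B contrasts. With clusters 4 rather than 7 members were called in monocyte-like over macrophage-like cells, and with no low-count filter 4 rather than 2 in mature DC-like cells. Signs changed for differences near 0 or at few counts. S100a13 in mature DC-like cells was at -0.12 without the normalization factor, -0.019 without the filter, -0.014 without doublets and -0.049 with the B-like counts subtracted (-0.032 to 0.094 with a library left out). In NK-like cells S100a8 was at 0.43 without doublets and 1.57 with clusters (-0.34 to 0.47 with a library left out), and S100a9 at 1.49 with clusters. In Treg-like cells S100a8 was at -1.15 with the looser rule (-0.087 without control to 0.33 without 2FF), and S100a9 at -0.066 without doublets and -1.03 with the looser rule. S100a9 in control macrophage-like cells (56.2 CPM) became 113 with clusters, 62.6 with a 10% mitochondrial limit, 114 thinned, 203 with the looser rule and 39.0 after subtraction. In control CD8 T-like cells (35.1 CPM) it became 57.1 thinned, 57.7 with the looser rule and 8.95 after subtraction. The S100a8 to S100a9 ratio in control monocyte-like cells (3.07) became 2.14, 2.20, 1.74 and 3.39 with clusters, thinning, the looser rule and subtraction. S100a10 in Treg-like cells became 911 CPM thinned and 831 after subtraction. With at least 50 UMIs in the class and 5 CPM added, 16 pairs of a member and a class had control 2-fold from every other library (18 with at least 10 UMIs), and they became 9 thinned, 10 after subtraction and 7 with at least 200 UMIs. The cause was not tested. Tumor-like over macrophage-like cells was not run, since no library had 20 tumor-like cells, nor was subtraction for CD8 T over B, and contrasts without control libraries have no value without control.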
